A study of Mus musculus with 2 samples.

Results

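*Mal*, *Myl1*, *Ctnnd2*, *Kcnh5*, *Dpp10*, *Nebl* and *Epb41l5* were described here as 7 of the 32285 genes counted in the single-cell matrices of T cells from 1 WT and 1 DKO-severe mouse. The 7 genes were chosen by their measured values in these matrices (detection and UMIs by gate and genotype, co-detection, and the T cell receptor segment of the cells that held them), so those values are given as descriptions, and no test was made. A UMI is a molecular tag that counts 1 captured message. The genes were provisionally named as one ectopic group; *Mal*, *Myl1*, *Ctnnd2*, *Kcnh5* and *Dpp10* were each found in few cells, and *Nebl* and *Epb41l5* in many more, and since co-detection helped to choose the 7 genes it is no independent sign of a group.

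None of the genes is a standard marker of helper T cells. The product of *Mal* (myelin and lymphocyte protein) sorts cargo to cholesterol-rich membrane rafts in T cells, epithelia and myelinating glia. *Myl1* encodes an essential light chain of fast skeletal muscle myosin. *Ctnnd2* encodes delta-catenin, a neuronal armadillo protein that binds cadherin tails, *Kcnh5* encodes a voltage-gated potassium channel of the ether-a-go-go family, and *Dpp10* encodes a peptidase-like protein without enzyme activity that accompanies Kv4 potassium channels. *Nebl* encodes nebulette, an actin-binding relative of nebulin in the cardiac Z-disc that also has a broadly expressed LASP-type isoform. *Epb41l5* encodes a FERM-domain protein of the band 4.1 family that binds the Crumbs complex and takes part in epithelial polarity.

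Spleen and lymph nodes (cervical, inguinal) of each mouse, taken at 14 weeks of age, were pooled, and TCRβ+ cells were isolated. The WT mouse was Foxp3Cre WT and the DKO-severe mouse was Foxp3Cre Tet2/3 fl/fl, so both carried the Cre driven from *Foxp3*, and *Tet2* and *Tet3*, which encode enzymes that oxidise 5-methylcytosine, were floxed in the second mouse only. The matrices do not show which cells had lost the floxed alleles, and Cre driven from *Foxp3* is known to act at a low level in some cells outside the Treg lineage. Cells of both mice were marked with hashtag antibodies (Hashtag 1 for WT and Hashtag 2 for DKO) and pooled in 1 library. The study's methods give 10000 cells loaded, fewer than the 14350 barcodes of both matrices together, and do not say whether that number is per mouse. There was 1 mouse per genotype, so a difference between genotypes cannot be told apart from a difference between these 2 mice.

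The WT matrix held 7189 barcodes with 45294779 UMIs and the DKO-severe matrix 7161 barcodes with 69692053 UMIs, with 0 barcodes in both. After filtering, 6583 WT cells were retained with a median of 5616 UMIs, and 6359 DKO-severe cells with a median of 8066. Because the DKO-severe cells were deeper, detection was read with every cell thinned to 3800 UMIs, which left out 688 shallower cells of WT and 476 of DKO-severe. The Cd4 gate (a *Cd3* chain and *Cd4*, without *Cd8a* or *Cd8b1*) then held 1258 WT and 1953 DKO-severe cells, of which 27 and 89 were Foxp3-positive (1 or more *Foxp3* UMIs), and the Cd8 gate (*Cd8a* or *Cd8b1* without *Cd4*) held 2917 and 1571. Shares are given with exact 95% (Clopper-Pearson) intervals and log2 ratios of CPM (counts-per-million, the UMIs of a gene scaled by all UMIs of the gate, not thinned) with exact conditional 95% intervals; both cover counting error only. In a ratio, fewer than 3 UMIs were counted as 3.

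The start sites of the 5 rarer genes (detected in under 5% of the Cd4-gated DKO-severe cells, a division made after the values were seen) are shown first, since these genes were found together in cells although they lie on 4 different chromosomes and 3 of the 5 are long. In the mm10 annotation, *Mal* spans 23.5 kb (chr2:127633226-127656695), *Myl1* 21.1 kb (chr1:66924295-66945404), *Ctnnd2* 857 kb (chr15:30172593-31029341), *Kcnh5* 280 kb (chr12:74897220-75177332) and *Dpp10* 724 kb (chr1:123321471-124045559). *Nebl* spans 388 kb (chr2:17343909-17731464) and *Epb41l5* 104 kb (chr1:119545037-119649000). Other gene models lie inside some of these spans: 9 on the same strand within *Dpp10*, 3 within *Ctnnd2* and 1 within *Epb41l5*, and 1, 2 and 2 on the other strand within *Dpp10*, *Ctnnd2* and *Nebl*, so the counts of these 4 genes are uncertain where a model overlaps. The windows below run from 250 bases before to 50 bases after a start site (RefSeq, GRCm38.p6), written 5′ to 3′ on the gene's own strand, with each CG dinucleotide, the site that TET enzymes act on when it is methylated, in capitals.
Mal (chr2:127656646-127656945, minus strand): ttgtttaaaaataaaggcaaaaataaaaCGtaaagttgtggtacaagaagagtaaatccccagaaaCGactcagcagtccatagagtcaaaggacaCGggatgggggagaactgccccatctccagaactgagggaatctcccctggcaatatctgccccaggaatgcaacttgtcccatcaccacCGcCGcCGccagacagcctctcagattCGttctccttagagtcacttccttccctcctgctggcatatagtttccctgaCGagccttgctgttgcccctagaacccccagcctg
Myl1 (chr1:66945007-66945306, minus strand): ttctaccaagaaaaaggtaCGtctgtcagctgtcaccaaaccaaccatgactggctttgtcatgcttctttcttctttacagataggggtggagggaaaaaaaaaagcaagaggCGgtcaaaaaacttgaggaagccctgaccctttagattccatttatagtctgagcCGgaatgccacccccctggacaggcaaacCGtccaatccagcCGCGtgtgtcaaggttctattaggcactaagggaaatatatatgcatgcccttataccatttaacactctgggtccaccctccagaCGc
Ctnnd2 (chr15:30172284-30172583, plus strand): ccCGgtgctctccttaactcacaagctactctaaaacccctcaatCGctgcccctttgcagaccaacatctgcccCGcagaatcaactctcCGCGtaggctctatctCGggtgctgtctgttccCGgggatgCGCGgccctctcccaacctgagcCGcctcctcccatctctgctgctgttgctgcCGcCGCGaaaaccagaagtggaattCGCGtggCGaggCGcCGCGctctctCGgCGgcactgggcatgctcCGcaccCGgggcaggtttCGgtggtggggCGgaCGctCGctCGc
Kcnh5 (chr12:75177283-75177582, minus strand): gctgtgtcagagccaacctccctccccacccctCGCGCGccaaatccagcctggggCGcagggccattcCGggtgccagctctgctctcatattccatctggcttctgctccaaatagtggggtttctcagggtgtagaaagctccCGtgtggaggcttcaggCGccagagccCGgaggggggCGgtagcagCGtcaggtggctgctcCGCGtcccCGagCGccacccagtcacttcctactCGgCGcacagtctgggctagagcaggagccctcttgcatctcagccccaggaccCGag
Dpp10 (chr1:124045510-124045809, minus strand): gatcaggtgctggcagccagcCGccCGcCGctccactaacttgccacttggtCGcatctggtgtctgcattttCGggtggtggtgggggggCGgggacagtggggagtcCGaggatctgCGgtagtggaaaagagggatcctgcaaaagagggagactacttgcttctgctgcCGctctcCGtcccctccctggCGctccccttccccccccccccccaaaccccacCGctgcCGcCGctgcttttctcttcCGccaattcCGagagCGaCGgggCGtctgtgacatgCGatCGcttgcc

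The 5 windows differed in their CG content. *Mal* and *Myl1* held 8 and 7 CG dinucleotides, close to the median of 7 over 32851 RefSeq windows of the same length, while *Dpp10* held 21 and *Ctnnd2* 28, at or above the upper quartile of 20. *Kcnh5*, with 17, lay between. *Nebl* had 4 windows in the table, with 1, 1, 5 and 32 CG dinucleotides, and *Epb41l5* had none, so 6 of the 7 genes were matched. On either strand, the letters GGGCGG (a GC box) were found in the windows of *Ctnnd2*, *Kcnh5* and *Dpp10* and in 35.7% of all windows, the letters TATAAA in that of *Myl1* and in 13.6% of all windows, and the letters CCCTC, which give CTCF its name, in all 5 printed windows and in 66.0% of all. The libraries read message 3′ ends, so the matrices do not show which start site was used.

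All 5 rarer genes were near the limit of detection in WT Cd4-gated cells and were found in a small share of DKO-severe Cd4-gated cells. *Mal* was found in 50 of 1953 DKO-severe cells (2.56%, 1.91 to 3.36) and in 1 of 1258 WT cells (0.0795%, 0.00201 to 0.442). *Myl1* was in 37 DKO-severe cells (1.89%, 1.34 to 2.60) and in 0 WT cells (3 counts would be 0.238%, and the exact upper bound is 0.293%). *Ctnnd2* was detected in 1 WT and 43 DKO-severe cells (2.20%, 1.60 to 2.95). For these 3 genes and for *Kcnh5*, the WT and DKO-severe intervals did not overlap. The genes were chosen partly by their detection in these cells, and the share of all genes without overlap was not taken. Nothing is therefore read from the number of genes without overlap, and the intervals do not cover differences between mice. *Kcnh5* went from 5 WT cells (0.397%, 0.129 to 0.925) to 49 DKO-severe cells (2.51%, 1.86 to 3.30). *Dpp10*, detected in 2 WT cells (0.159%, 0.0193 to 0.573) and 9 DKO-severe cells (0.461%, 0.211 to 0.873), had overlapping intervals at this depth.

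*Nebl* and *Epb41l5* were found in many more cells. *Nebl* was already present in WT, in 79 Cd4-gated cells (6.28%, 5.0 to 7.77), against 605 DKO-severe cells (31.0%, 28.9 to 33.1). *Epb41l5* was detected in 5 WT cells (0.397%) and 227 DKO-severe cells (11.6%, 10.2 to 13.1). At least 1 of the 7 genes was held by 90 WT cells (7.15%, 5.79 to 8.72) and 751 DKO-severe cells (38.5%, 36.3 to 40.7), most of them through *Nebl*. At least 1 of the 5 rarer genes was held by 9 WT cells (0.715%, 0.328 to 1.35) and 129 DKO-severe cells (6.61%, 5.54 to 7.80).

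**Figure D1:**
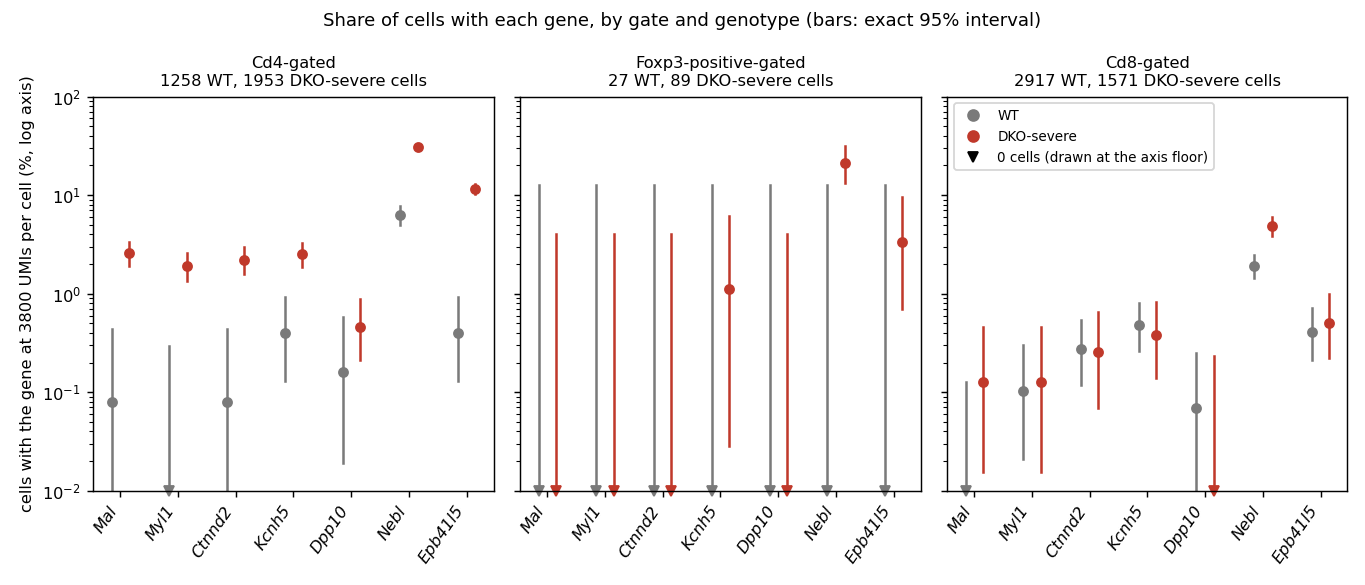
Share of cells in which each gene was detected (%, log axis) after thinning to 3800 UMIs, in Cd4-gated, Foxp3-positive and Cd8-gated cells of the WT (grey) and DKO-severe (red) mouse; lines are exact 95% intervals and triangles mark 0 cells. In Cd4-gated cells the DKO-severe points lie above WT, from 0.461% for *Dpp10* to 31.0% for *Nebl*, while in Cd8-gated cells only *Nebl* has intervals that do not overlap.

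The levels summed over all Cd4-gated cells, which used the full depth, were higher in the DKO-severe mouse for each of the 7 genes. The DKO-severe sum held 258 *Mal* UMIs (9.23 CPM) and the WT sum 2 (0.195 CPM), which gave a log2 ratio of 4.98 with WT counted as 3 UMIs (interval 3.69 to 8.61 from the counts as they are). *Myl1* had 3 and 196 UMIs (log2 ratio 4.58, 3.01 to 6.87), and *Epb41l5* had 17 and 881 (4.25, 3.56 to 5.03). The other 4 genes had smaller ratios. *Ctnnd2* had 10 and 252 UMIs (3.21, 2.30 to 4.28), *Dpp10* 5 and 101 (2.89, 1.62 to 4.54) and *Kcnh5* 13 and 228 (2.68, 1.88 to 3.61). *Nebl*, with 333 WT UMIs (32.5 CPM) and 4172 DKO-severe UMIs (149 CPM), had the lowest ratio of the 7 (2.20, 2.04 to 2.36). All 7 had a log2 ratio of 2 or more, as did 9.51% of the 14441 genes with 20 or more UMIs in this contrast; the genes were listed with this contrast known, so nothing is read from the count. The median log2 ratio was 3.21 over the 7 genes and 0.15 over all genes tested; with a pseudocount of 5 CPM the median of the 7 was 1.23. 1 WT cell weighed on *Ctnnd2*: a single Foxp3-positive cell held 5 of its 10 WT UMIs, and in Foxp3-negative cells the ratio was 4.39 (3.15 to 6.03).

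Positive DKO-severe cells often held more than 1 UMI of a gene, and single cells reached high counts. Without thinning, *Mal* was present in 97 Cd4-gated DKO-severe cells with a median of 2 UMIs and a maximum of 10, and 60 of the 97 cells held 2 or more. *Ctnnd2* reached 14 UMIs in 1 cell, *Myl1* 12 and *Kcnh5* 9. For *Dpp10*, 14 of its 27 positive cells held 1 UMI, while 7 held 5 or more and 1 cell held 22 of the 101 UMIs. *Nebl* was present in 1190 cells, with 5 or more UMIs in 291 of them and a maximum of 33. *Epb41l5* was present in 480 cells, 272 of which held 1 UMI. In WT, *Nebl* reached 14 UMIs in 1 cell, *Ctnnd2* 5, and the other 5 genes at most 3.

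The 5 rarer genes had lower summed levels in Foxp3-positive than in Foxp3-negative Cd4-gated cells of the same mouse. In 331 Foxp3-positive DKO-severe cells, *Mal* and *Myl1* each had 3 UMIs, all in 1 cell, *Ctnnd2* and *Dpp10* had 2 and *Kcnh5* had 8. The log2 ratio of Foxp3-positive over Foxp3-negative Cd4-gated cells was -4.11 for *Mal* (-6.40 to -2.55), -4.08 for *Ctnnd2* (-7.72 to -2.80), -3.71 for *Myl1* (-6.00 to -2.14), -2.74 for *Dpp10* (-6.39 to -1.44) and -2.48 for *Kcnh5* (-3.71 to -1.48). *Epb41l5* was also lower in Foxp3-positive cells (36.3 CPM in Foxp3-negative and 7.84 CPM in Foxp3-positive cells, log2 ratio -2.21, -2.73 to -1.74). *Nebl* differed least, at 157 and 111 CPM (-0.50, -0.63 to -0.36). By cells, *Mal* was in 0.302% of Foxp3-positive and 3.99% of Foxp3-negative cells, *Kcnh5* in 1.81% and 4.32% and *Dpp10* in 0.604% and 1.04%. A single Foxp3-negative cell held 22 *Dpp10* UMIs. At equal depth the intervals of these shares overlapped for each rarer gene, with *Mal* in 0 of 89 (0 to 4.06%) and in 2.68% (2.00 to 3.52). These 2 cell groups come from 1 mouse, and the intervals do not cover differences between mice.

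Between genotypes, the Foxp3-positive cells showed a difference for *Nebl*. It had 525 UMIs in 141 of 331 DKO-severe cells (111 CPM) and 4 UMIs in 2 of 64 WT cells (8.71 CPM), which gave a log2 ratio of 3.67 (2.31 to 5.56). At equal depth, *Nebl* was found in 19 of 89 DKO-severe cells (21.3%, 13.4 to 31.3) and in 0 of 27 WT cells (3 counts would be 11.1%, and the exact upper bound is 12.8%). 2 of the 7 genes reached 20 UMIs in this gate and 1 of them passed a log2 ratio of 2, against 1.90% of the 10644 genes tested. The second was *Epb41l5*, with 0 WT UMIs and 37 DKO-severe UMIs in 28 cells of 459046 WT and 4719695 DKO-severe UMIs, so no ratio is given. With 27 WT cells and none holding a rarer gene, the exact upper bound for each of them was likewise 12.8%.

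In Cd8-gated cells the intervals of the rarer genes overlapped between genotypes. 12 of 1571 DKO-severe cells held at least 1 of them (0.764%, 0.395 to 1.33), and 26 of 2917 WT cells did (0.891%, 0.583 to 1.3). The log2 ratio was 0.50 for *Ctnnd2* (-0.30 to 1.3), -0.33 for *Kcnh5* (-1.37 to 0.66) and 0.13 for *Epb41l5* (-0.83 to 1.09), so each interval included 0 and left out a 4-fold rise. *Mal*, with 1 WT and 3 DKO-severe UMIs, and *Dpp10*, with 4 and 2, were too low for a ratio to be read, and all 5 DKO-severe UMIs of *Myl1* were in 1 cell. *Nebl* was higher in DKO-severe Cd8-gated cells (9.19 and 20.9 CPM, log2 ratio 1.18, 0.92 to 1.44; 1.92% and 4.84% of cells). None of the 4 genes that reached 20 UMIs passed a log2 ratio of 2, against 1.85% of the 13431 genes tested. Free RNA was not measured; beside the 2.56% of Cd4-gated DKO-severe cells with *Mal*, the Cd8-gated share was 0.127% (0.0154 to 0.459), with median depths of 7965 and 9432 UMIs before thinning.

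**Figure D2:**
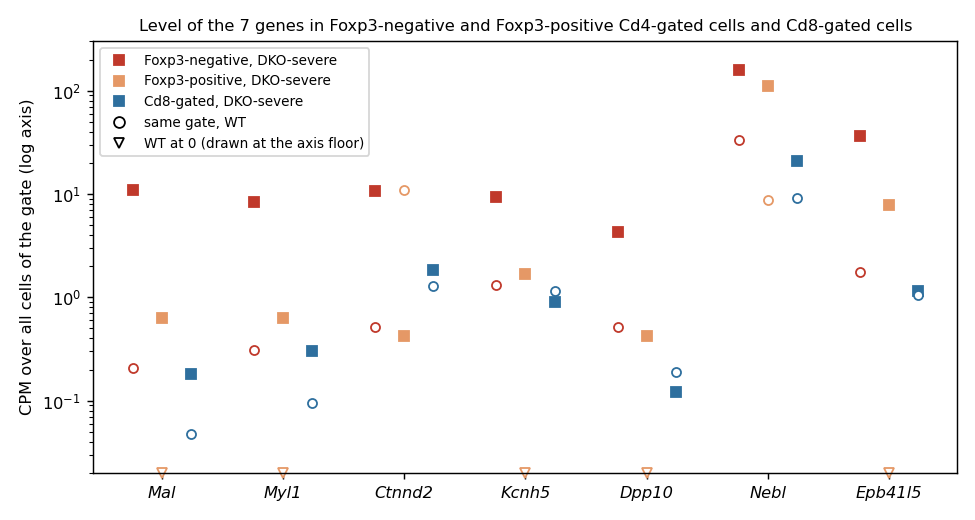
Level of each gene (CPM, log axis) summed over Foxp3-negative Cd4-gated, Foxp3-positive and Cd8-gated cells of the DKO-severe mouse (filled squares) and the same gates of WT (open circles; triangles mark 0 UMIs). *Mal* is at 11 CPM in Foxp3-negative and 0.636 CPM in Foxp3-positive DKO-severe cells, while *Nebl* is at 157 and 111 CPM; the open circle of *Ctnnd2* at 10.9 CPM in Foxp3-positive WT cells is 5 UMIs of 1 cell.

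Cells with a *Cd3* chain that fell in neither gate, and B cells among the TCRβ+ preparation, were described in the same way. In the DKO-severe mouse, thinning took the Cd4 gate from 2738 to 1953 cells and neither gate from 1553 to 2016. Some cells of neither gate were thus Cd4-gated before thinning. In the 2016 DKO-severe cells of neither gate, 99 held at least 1 rarer gene (4.91%, 4.01 to 5.95) and *Nebl* was found in 21.3% (19.6 to 23.2), between the Cd4-gated and Cd8-gated shares. In 200 DKO-severe cells without a *Cd3* chain and with 2 or more B cell markers, 1 cell held a rarer gene (0.50%, 0.0127 to 2.75) and *Nebl* was found in 5 (2.50%). *Epb41l5* was found in 10 of these B cells (5.0%, 2.42 to 9.0), above its 0.509% (0.220 to 1.00) in Cd8-gated cells of that mouse. With 9 such cells in WT, the B cells could not be compared between genotypes.

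Cells with 1 of the rarer genes held another far more often than cells without it. Of the 50 Cd4-gated DKO-severe cells with *Mal*, 17 held *Kcnh5* (34.0%, 21.2 to 48.8), against 1.68% of the cells without *Mal*. *Ctnnd2* was in 14 of the 50 (28.0%, against 1.52%), *Myl1* in 11 (22.0%, against 1.37%) and *Dpp10* in 4 (8.0%, against 0.263%). The phi coefficient (the correlation of presence and absence over the 1953 cells, given as a description) was 0.33 for *Mal* with *Kcnh5*, 0.28 for *Mal* with *Ctnnd2* and 0.24 for *Mal* with *Myl1* and *Ctnnd2* with *Kcnh5*. Over the 10 pairs of rarer genes phi ran from 0.09 to 0.33 with a median of 0.19. All cells came from 1 library and were thinned to the same number of UMIs, while the median number of genes detected was 1691 in cells with 1 or more rarer genes and 1762 in those with none.

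Over the 11 pairs with *Nebl* or *Epb41l5*, of which *Nebl* with *Epb41l5* is 1, phi ran from 0.05 to 0.19 with a median of 0.10. Phi cannot reach high values where one gene is much more frequent than the other, so these values are not comparable with those of the rarer pairs. Nearly all *Mal* cells held *Nebl* (42 of 50, 84.0%, 70.9 to 92.8), as did 29.6% of the cells without *Mal*, but *Mal* was in 42 of the 605 *Nebl* cells (6.94%). *Epb41l5* was in 30% of *Mal* cells (17.9 to 44.6) and 11.1% of the others. The pairing of *Nebl* with *Epb41l5* had a phi of 0.14, with *Epb41l5* in 18.3% of *Nebl* cells and 8.61% of the others.

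**Figure D3:**
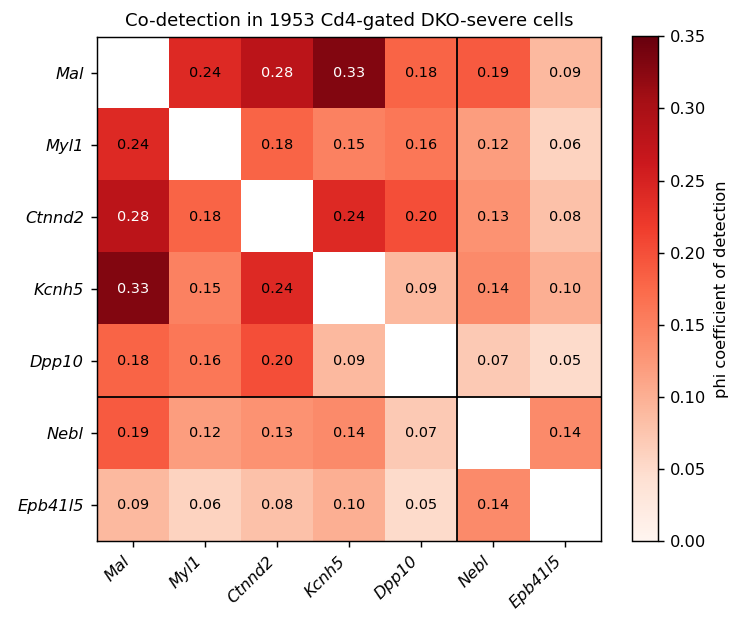
Phi coefficient of detection for each pair of the 7 genes over 1953 Cd4-gated DKO-severe cells at 3800 UMIs; lines set off *Nebl* and *Epb41l5*. The highest value is 0.33 for *Mal* with *Kcnh5*, and the pairs of the 5 rarer genes have a median of 0.19; pairs with *Nebl* or *Epb41l5* (median 0.10) have a lower ceiling because those genes are more frequent.

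Counted by cell, 191 Cd4-gated DKO-severe cells held 2 or more of the 7 genes (9.78%, 8.5 to 11.2), against 2 WT cells (0.159%, 0.0193 to 0.573). The most frequent combination was *Nebl* with *Epb41l5* alone, in 91 of the 191, followed by *Kcnh5* with *Nebl* in 11 and *Mal* with *Nebl* in 10. 2 or more of the 5 rarer genes were held by 42 DKO-severe cells (2.15%, 1.55 to 2.90) and by 0 WT cells (exact upper bound 0.293%). In the DKO-severe mouse, 29 cells held 3 of the 7 genes, 14 held 4, 3 held 5 and 3 held 6, and none held all 7. Of the 89 Foxp3-positive DKO-severe cells, 1 held 2 or more of the 7. The number of cells with 2 or more depended on depth, at 16.2% without thinning and 6.47% at 2500 UMIs.

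The genes whose presence was most like that of each member differed between the rarer genes and the other 2. Among 9079 genes found in 50 or more of these cells, *App* (amyloid precursor protein) was among the nearest 3 to *Mal*, *Myl1*, *Ctnnd2* and *Kcnh5*, with phi between 0.16 and 0.28. *Ly6c2*, a GPI-anchored surface protein of memory and effector T cells, and *Pde2a*, a phosphodiesterase of cyclic nucleotides, were nearest to *Mal* (0.26 and 0.21) and *Myl1* (0.16 and 0.14). *Gpr34*, a lysophosphatidylserine receptor, was near *Ctnnd2* (0.17) and *Kcnh5* (0.16), *Gab3* near *Ctnnd2* (0.16) and *Prss12* near *Kcnh5* (0.16). The nearest to *Dpp10* (*Bcas3os1*, *Akip1* and *Taf9b*) rested on 3 or 4 shared cells of its 9. *Nebl* was nearest to *Pdzrn3* (0.26), a ubiquitin ligase, *Klf2* (0.23), a transcription factor of quiescent and recirculating T cells, and *Pcsk1* (0.22), a prohormone convertase. *Epb41l5* was nearest to *Ntng1* (0.20), *Ntrk3* (0.19) and *Flrt2* (0.18), which encode neuronal adhesion molecules and a neurotrophin receptor.

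*App*, *Ly6c2*, *Pde2a* and *Gpr34* were picked for their likeness to the rarer genes in these cells, so their shares in the 129 DKO-severe cells with at least 1 rarer gene and the 1824 without restate that choice as levels. *App* was detected in 37.2% (28.9 to 46.2) and 3.62% (2.81 to 4.58), and in 7.31% of WT Cd4-gated cells. *Ly6c2* was detected in 28.7% and 6.20%, *Pde2a* in 21.7% and 3.62%, and *Gpr34* in 16.3% and 1.59%. In WT these 3 were found in 5.01%, 6.20% and 2.31% of cells. In the 42 cells with 2 or more rarer genes, *App* and *Ly6c2* each reached 47.6% (32.0 to 63.6).

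**Figure D4:**
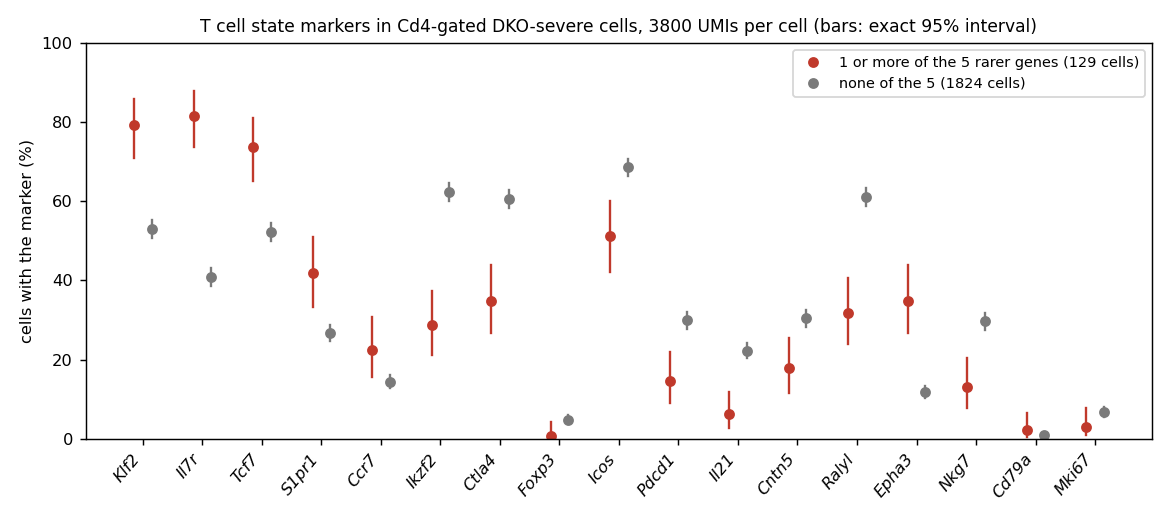
Share of Cd4-gated DKO-severe cells (%) with T cell state markers after thinning to 3800 UMIs, for the 129 cells with 1 or more of the 5 rarer genes (red) and the 1824 without (grey); lines are exact 95% intervals. *Il7r* and *Klf2* lie higher in the red cells (81.4% and 79.1%) and *Ikzf2*, *Il21* and *Ralyl* lie lower (28.7%, 6.20% and 31.8%).

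The cells with rarer genes more often held *Il7r*, *Klf2* and *Tcf7*, and less often most of the Treg and Tfh genes listed. *Il7r*, the interleukin-7 receptor chain, was detected in 105 of the 129 cells (81.4%, 73.6 to 87.7), in 40.9% (38.6 to 43.2) of those without a rarer gene and in 63.9% of WT cells. *Klf2* was in 79.1%, 53.0% and 74.6%, and *Tcf7*, a transcription factor of naive and memory T cells, in 73.6% and 52.2% of DKO-severe cells with and without. *S1pr1*, a receptor for lymphoid egress, was in 41.9% and 26.6%, and *Ccr7*, a chemokine receptor of lymph node entry, in 22.5% and 14.4%.

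*Ikzf2*, which encodes the Treg-associated factor Helios, was detected in 28.7% (21.1 to 37.3) of the cells with a rarer gene and in 62.4% (60.1 to 64.6) of those without, against 22.9% of WT cells. *Il21*, the Tfh cytokine, was at 6.20% and 22.3%, *Pdcd1* at 14.7% and 29.9%, and *Icos* at 51.2% and 68.5%. Of the 12 Tfh genes listed, 11 had a log2 ratio below 0 (median -0.92) and *Bcl6*, the Tfh lineage factor, was at 0.05 (-0.23 to 0.33). Of the 8 Treg genes, 7 were below 0 (median -0.70). *Lrrc32* was at 0.17 (-3.51 to 1.53) because its 2 UMIs in cells with a rarer gene were counted as 3. Its CPM was 1.73 in these cells and 2.32 in those without. Over all 12882 genes tested in this contrast, 52.1% were below 0 with a median of -0.02, and all 6 genes of each of the T cell, proliferating and granulocyte lists were below 0 too. *Cntn5* (17.8% and 30.4%) and *Ralyl* (31.8% and 61.0%), neuronal genes found in many Cd4-gated DKO-severe cells, were also lower. *Epha3*, an ephrin receptor of the same list, was higher (34.9%, 26.7 to 43.8, and 11.8%, 10.4 to 13.4), so the list did not move as one. In the 42 cells with 2 or more rarer genes, *Cntn5* was in 2 cells (4.76%) and *Ikzf2* in 6 (14.3%).

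Read from the state genes, *Nebl* and *Epb41l5* took other places. *Nebl* was found in 28.2% (24.5 to 32.1) of Cd4-gated DKO-severe cells with *Pdcd1* and in 32.1% (29.7 to 34.6) of those without, and in 34.7% with and 29.4% without *Cntn5*, so its share moved little with either. *Epb41l5* was in 20.5% (17.2 to 24.0) of the cells with *Cntn5* and 7.92% (6.55 to 9.48) of those without, and in 15.5% with and 10.6% without *Il21*. At least 1 rarer gene was in 3.99% (2.54 to 5.92) of the *Cntn5* cells and 7.70% (6.35 to 9.24) of the others, and in 1.93% (0.838 to 3.77) of the *Il21* cells and 7.86% (6.57 to 9.32) of the others.

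Whole-message levels were compared between the 191 cells with 2 or more of the 7 genes and the 1762 other Cd4-gated DKO-severe cells. Among 9777 genes that had at least 100 UMIs, the highest log2 ratios were *1700003C15Rik* (4.54, 3.98 to 5.12), *Gpr34* (3.28, 2.73 to 3.83), *App* (3.13, 2.82 to 3.44), *Prss12* (2.98, 2.53 to 3.43), *Atp6v0d2* (2.38), *Tdrp* (2.28), *Adam12* (1.99), *Gm4577* (1.97), *Pde2a* (1.94) and *Pkp4* (1.84). *Pkp4* encodes a plakophilin of the delta-catenin family, a relative of *Ctnnd2*, with 119 UMIs in the 191 cells. 0.318% of the 12882 genes with 20 or more UMIs passed a log2 ratio of 2 in this contrast, of which *1700003C15Rik*, *Gpr34*, *App*, *Prss12*, *Atp6v0d2* and *Tdrp* are 6. The lowest were *Hba-a1* (-4.95), *Hba-a2* (-4.67), *Gzmb* (-4.57, granzyme B), and *Havcr2* and *Retnlg*, which had 0 UMIs in the 191 cells and 937 and 751 in the others (-4.91 and -4.59 with 0 counted as 3). The globin and *Retnlg* UMIs sat in few of the other cells, with *Retnlg* in 0.624% of them.

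The defining markers of muscle, neurons and myelin were at or near 0 in the 191 cells with 2 or more of the 7 genes. Of these cells, 91 held *Nebl* with *Epb41l5* alone and so none of the 5 rarer genes. Markers of blood cell types were present at varied levels whose part in the results was not tested. All 6 T cell markers were detected in the 191 cells, in 45% (*Cd2*) to 99.0% (*Trbc2*) of them, with log2 ratios of -0.69 to -0.12 against the other cells. Of the skeletal muscle markers (*Acta1*, *Ckm*, *Tnnt3*, *Tnni2*, *Tnnc2*, *Mylpf*), 2 of 6 were at 0 and the 6 summed to 4.95 CPM in the 191 cells and 5.77 CPM in the others. Of the neuron markers, *Snap25*, *Rbfox3* and *Tubb3* had 1 UMI each, *Syt1* and *Nefl* 0, and *Map2*, which T cells of this mouse also carried, had 83. Of the myelin markers, *Mog*, *Mag* and *Sox10* were at 0, and *Mbp*, which is transcribed in T cells too, was in 26.7% of these and 28.8% of the other cells. In the 129 cells with 1 or more rarer genes, summed muscle markers were 5.20 CPM, neuron markers 46.8 CPM and myelin markers 67.6 CPM. In the cells without a rarer gene these sums were 5.73, 74.1 and 101 CPM. The sums that follow are again for the 191 cells and the others. Summed B cell markers were 94.1 and 69.2 CPM, monocyte or macrophage markers 290 and 273 CPM, granulocyte markers 91.7 and 559 CPM, erythroid markers 24.2 and 532 CPM, NK or innate-like markers 97.2 and 619 CPM and gamma delta T markers 15.5 and 9.22 CPM. Without cells that held UMIs of 2 or more B cell, monocyte or macrophage, granulocyte or erythroid markers, the share with 2 or more of the 7 genes was 10.1% of 1690 cells.

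A leading Trbv segment is the T cell receptor beta variable gene with the most UMIs in a cell, where 1 led alone. It was always read from all UMIs of a cell, while the gate and the genes were read after thinning unless stated. No leading segment could be given to 1258 of the 1953 Cd4-gated DKO-severe cells. These segments lie far from the message 3′ end, and a leading segment can rest on 1 UMI. Among the 46 cells with a leading segment and at least 1 rarer gene, 16 were led by *Trbv19* (34.8%, 21.4 to 50.2) and 10 by *Trbv15* (21.7%). Among the 649 without a rarer gene, *Trbv19* led 10.8% and *Trbv15* 6.47%, while *Trbv12-2* led 29.7% and *Trbv13-2* 28.4%. *Trbv12-2* and *Trbv13-2* led 8 and 2 of the 46. *Trbv19* and *Trbv15* were thus the more frequent segments in cells with rarer genes, and the segments that led most DKO-severe cells were the less frequent. In 309 WT cells the most frequent was *Trbv2* (15.2%), and the effective number of segments (the number of equally frequent segments that would be as diverse) was 13.3, against 5.26 in the DKO-severe cells without a rarer gene and 4.79 in those with one. The number of cells (309, 649 and 46) was not matched, so no difference in diversity is read from 5.26 and 4.79.

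By gene, *Trbv19* led 10 of 19 *Mal* cells (52.6%), 4 of 9 *Myl1* cells and 2 of 4 *Dpp10* cells, while *Trbv15* and *Trbv19* led 6 each of 19 *Ctnnd2* cells and 5 each of 18 *Kcnh5* cells. Without thinning, *Trbv19* led 18 of 36 *Mal* cells and 11 of 23 *Myl1* cells, and *Trbv15* led 15 of 38 *Ctnnd2* cells with *Trbv19* leading 11. Read by segment, *Mal* was in 11.6% (5.72 to 20.3) of *Trbv19*-led and 3.85% (0.469 to 13.2) of *Trbv15*-led cells, *Myl1* in 4.65% and 3.85% and *Ctnnd2* in 6.98% and 11.5%, with intervals that overlapped for each gene. *Nebl* cells were led by *Trbv12-2* (25.5%) and *Trbv13-2* (23.8%) before *Trbv19* (18.6%) and *Trbv15* (14.3%) of 231. *Epb41l5* cells were led by *Trbv13-2* (31.0%) and *Trbv12-2* (28.7%) of 87, with *Trbv19* at 13.8%.

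Turned round, at least 1 rarer gene was held by 16 of the 86 *Trbv19*-led cells (18.6%, 11 to 28.4) and 10 of the 52 *Trbv15*-led cells (19.2%, 9.63 to 32.5). In *Trbv12-2*-led cells it was 8 of 201 (3.98%, 1.73 to 7.69) and in *Trbv13-2*-led cells 2 of 186 (1.08%, 0.130 to 3.83). Of the cells led by any other segment, 5.88% (2.86 to 10.6) held a rarer gene. The genes were chosen partly by the segment of the cells that held them. Cells of 1 clone may also be counted more than once, so these intervals are no test between segments. *Nebl* was in 50% (39 to 61.0) of *Trbv19*-led and 63.5% (49.0 to 76.4) of *Trbv15*-led cells, against 29.4%, 29.6% and 24.1% for the other 3 classes. *Epb41l5* ran from 8.82% to 15.4% with overlapping intervals. The 1258 DKO-severe cells with no single leading segment held a rarer gene in 6.60% (5.29 to 8.11). None of the 16 *Trbv19*-led and 15 *Trbv15*-led WT cells held one (exact upper bounds 20.6% and 21.8%).

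**Figure D5:**
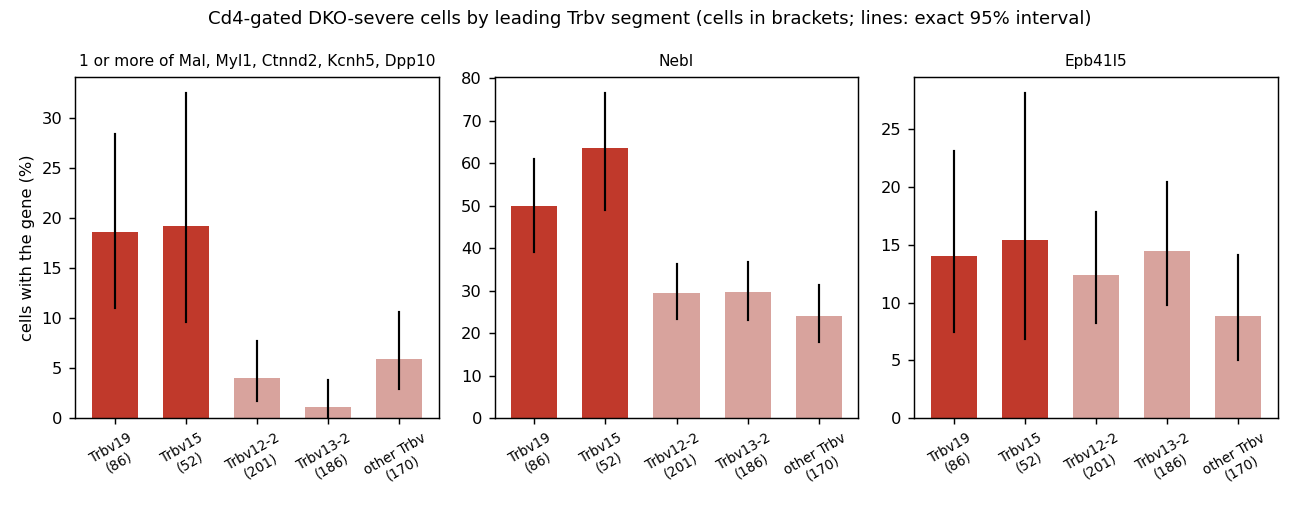
Share of Cd4-gated DKO-severe cells (%) with 1 or more of the 5 rarer genes, with *Nebl* and with *Epb41l5*, by the Trbv segment that led in the cell (number of cells in brackets; lines are exact 95% intervals; each panel has its own scale from 0). *Trbv19*-led and *Trbv15*-led cells are at 18.6% and 19.2% for the rarer genes and at 50% and 63.5% for *Nebl*, while *Epb41l5* stays between 8.82% and 15.4%.

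Cells outside the Cd4 gate were read in the same way. They include some that were Cd4-gated before thinning, so they are no separate set of cells. Among the DKO-severe cells of neither gate, *Trbv19* led 12 of 34 with a rarer gene (35.3%, 19.7 to 53.5) and 8.19% (6.18 to 10.6) of 635 without, and *Trbv15* led 20.6% (8.70 to 37.9) and 5.04% (3.47 to 7.04). The segment most frequent among cells with 2 or more of all 7 genes was less settled, at 20 of 74 for *Trbv19* (27.0%, 17.4 to 38.6), 17 for *Trbv12-2*, 15 for *Trbv15* and 13 for *Trbv13-2*: without thinning *Trbv12-2* led (23.9% of 176), and under a stricter cell filter *Trbv13-2* (25.8% of 66). *Trbv19*-led cells without a rarer gene differed from those of *Trbv15*: *Il7r* was in 21.4% (12.5 to 32.9) of 70 and 61.9% (45.6 to 76.4) of 42. *App* was in 7.14% and 16.7% of these cells, against 2.07% of *Trbv12-2*-led and 1.09% of *Trbv13-2*-led cells without a rarer gene. Cells that share a segment can descend from 1 clone or several, which a segment alone does not show, and receptor alpha segments led too few of these cells (9 with a rarer gene) to be compared.

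Relatives and partners of the 7 genes were described in the same Cd4-gated contrast, in 8 lists of 82 entries chosen with earlier results of these data known. *Neb* (log2 ratio 1.83) stands in both the fast skeletal muscle and the nebulin list and is counted in each. Of the 54 entries with 20 or more UMIs over both Cd4-gated sums, 36 had a log2 ratio of DKO-severe over WT above 0 and 18 below. At 2 or more were 5, against 9.51% of all genes, so this count is near the background. At -2 or less were 3. The share of all genes at -2 or less, or above 0, was not taken. The 5 were *Cdh2* (N-cadherin, 1 WT and 383 DKO-severe UMIs, 5.55, 4.64 to 12.44, with WT counted as 3), *Myadm* (2.69), a MAL-related membrane protein, *Kcnip3* (2.58, 2 WT UMIs counted as 3), a Kv4 channel-interacting protein, *Crb3* (2.28), a Crumbs protein, and *Pkp2* (2.01, 1 WT UMI counted as 3). The 3 were *Actn1* (alpha-actinin, -2.99, -3.12 to -2.86), *Kcnh3* (-2.64) and *Epb41l1* (-2.19).

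The families of *Myl1* and *Kcnh5* showed no second member with a log2 ratio of 2 or more. With 6 and 4 relatives read and 9.51% of all genes at 2 or more, nothing is read from this. Of 6 myosin light chains with 20 or more UMIs none was at 2 or more, with *Mylpf*, the fast skeletal regulatory chain, at 118 WT and 148 DKO-severe UMIs (-1.12, -1.48 to -0.76), and *Myl2*, *Myl3* and *Myl7* at 2, 0 and 0 DKO-severe UMIs. Of the fast skeletal muscle genes, *Myh1*, *Myh2*, *Myh4* and *Tnnc2* had 0 UMIs in both. All 4 relatives of *Kcnh5* with 20 or more UMIs were below 0 (median -0.92). The Kv4 pore genes *Kcnd2* and *Kcnd3*, partners of *Dpp10*, had 5 and 2 DKO-severe UMIs.

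The neighbours of the 7 genes on their chromosomes were read from the RefSeq table, 3 protein-coding genes on each side. Of 42, 41 were matched by symbol and 26 had 20 or more UMIs. Their median log2 ratio in Cd4-gated cells was 0.01, with 15 above and 11 below 0, and 3 were at 2 or more, against 9.51% of all genes tested, so the count is near the background. They were *Slc35f5* (3.17, 1.86 to 6.83, 2 WT UMIs counted as 3), 715 kb from *Dpp10*, and *Plxdc2* (3.14, 2.82 to 3.49) and *Skida1* (2.14, 1.15 to 9.06, 1 WT UMI counted as 3), 582 and 309 kb from *Nebl* on either side. *Plxdc2*, a plexin-domain membrane protein, had a log2 ratio of -1.69 in the cells with 2 or more of the 7 genes against the other cells. Both of these groups held cells with *Nebl*, so whether *Plxdc2* went with *Nebl* was not tested. The direct neighbours of *Mal* and *Myl1* with 20 or more UMIs (*Mrps5* -0.24, *Acadl* 0.96, *Lancl1* 0.01) stayed within a 2-fold change.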

How the data were processed

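Single-cell RNA of TCRβ+ cells was measured in 1 WT and 1 DKO-severe mouse. The authors deposited raw UMI counts per gene and barcode, made with Cell Ranger 7.1.0 on mm10 from a 10x 3′ v3.1 library and split by hashtag; whether intronic reads were counted is not given in the sources used here. Both matrices were used, and 0 per-sample columns were left unused. Cells with 500 or more genes, at most 10% mitochondrial UMIs and the matching hashtag were kept. Scrublet's automatic threshold called 0 doublets and had not worked, so the highest 6% of scores per matrix were removed. Shares were taken, and gates set, after thinning each cell to 3800 UMIs. Sums, CPM and the leading receptor segment of a cell used all UMIs. A gene was called at a log2 ratio of 2 with 20 or more UMIs. With 1 mouse per genotype no test between genotypes was made. Named genes are the 7 genes, the nearest 3 to each, the highest 10 and lowest 5 in cells with 2 or more of the 7, marker and relative lists, and 3 neighbours per side; others were named after their values were seen. The genes and lists were chosen with earlier results of these data known. Python 3.11.15, numpy 2.4.6, scipy 1.17.1, pandas 2.3.3, scanpy 1.11.5 and matplotlib 3.10.9 were used, and the scripts were tested on simulated data. Values of some marker genes are not reported here.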

Additional observations from a re-analysis of the deposited data

How the results depend on the processing

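No paired analysis was possible because there was 1 mouse per genotype, and for the same reason no mouse could be left out. The share of Cd4-gated DKO-severe cells with 1 or more of the 7 genes (38.5%) was 20.1% when 2 or more UMIs were asked for, 32.4% after thinning to 2500 UMIs and 51.6% without thinning. The share with 2 or more (9.78%) was 3.17%, 6.47% and 16.2% under the same 3 changes, 2.51% for 3 or more genes and 2.15% for 2 or more of the 5 rarer genes. These changes ask for more or sample fewer UMIs or genes, or the reverse. For the 7 genes, the median log2 ratio (3.21) became 1.23 with a pseudocount of 5 CPM and 4.29 with the highest 12% of doublet scores removed; the cause of the second was not tested. The leading Trbv segment of cells with 2 or more of the 7 genes (*Trbv19*, 27.0%) was *Trbv19* at 47.6% for 3 or more genes, at 50% for 2 or more rarer genes and at 43.6% for these without thinning. It was *Trbv15* (36.4%) from 2 or more UMIs, *Trbv12-2* without thinning (23.9%) and with 12% of doublet scores removed (28.6%), and *Trbv13-2* (25.8%) for cells with 1000 or more genes and at most 5% mitochondrial UMIs; the cause was not tested. The alternatives that use the rarer genes were chosen after seeing the data. Of 49 shares of single genes under 7 alternatives 31 moved by less than their interval and 18 by more, and of 21 CPM values 17 and 4; these are DKO-severe values, and no contrast between genotypes was rerun for single genes. Few cells limit the Foxp3-positive gate (27 WT and 89 DKO-severe cells at equal depth).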
